A study of Mus musculus with 2 samples.

Results

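Non-cycling monocytes rich in Ccr2 and Fn1 RNA made up 278 of the 14142 barcodes kept from 2 droplet-based 3′ single-cell RNA-seq libraries of mouse bone marrow, 152 of 8795 in the control (Ctrl) library and 126 of 5347 in the Map4k4-cKO (cKO) library. A barcode stands for the RNA caught in 1 droplet, counted as unique molecular identifiers (UMIs), each of which marks a captured RNA molecule. These members were chosen by their measured UMIs: at least 1 of Csf1r, at least 4 in the sum of F13a1, Fn1, Ccr2 and Ms4a6c, none of Mki67, Top2a or Siglech, under 3 in the sum of C1qa, C1qb and C1qc, and under 2% of UMIs from Camp, Ngp and Ltf. All barcodes had 200 to 9000 detected genes, at most 30% mitochondrial UMIs and at least 1000 UMIs. The 14 genes of this rule are therefore given as a description only, and so is every contrast of the members with barcodes that the rule left out.

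The study asked what loss of Map4k4, which encodes a serine/threonine kinase, does to blood cell formation in the marrow. The cKO mice carried Mx1-Cre and floxed Map4k4 alleles on a C57BL/6 background, and recombination was induced with poly I:C, a double-stranded RNA mimic, weeks before the marrow was taken. Mx1-Cre is driven by an interferon-inducible promoter that is active in blood cells and in other tissues. The labels call the other mice control with no genotype. The study's methods describe them as littermates that carry Mx1-Cre and write their Map4k4 genotype as -/-, which can be read as lacking the floxed allele or as a null, and they state poly I:C only for the floxed mice. By reverse-transcription PCR, the paper reports that Map4k4 RNA was lost from stem and progenitor cells after poly I:C, which gives a direction of lower in cKO. The size of the Map4k4 ratio to expect between these monocytes is not fixed by these sources. Mice were 13 to 14 weeks old. In each library, 2 parts of magnetically enriched c-Kit+ cells were mixed with 3 parts of marrow from which red cells had been lysed, so the shares of mature cells below are set in part by that mixing. How many animals were pooled per library was not given in the sources used here.

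Marrow monocytes arise from granulocyte and monocyte progenitors by way of dividing monocyte progenitors, leave the cell cycle, and enter the blood through the chemokine receptor Ccr2. Classical monocytes carry Ly6C and high Ccr2, and some become nonclassical monocytes with low Ly6C, low Ccr2 and high Cx3cr1, a change that needs the nuclear receptor Nr4a1. Monocytes also take up and digest particles in lysosomes, sense microbes through pattern recognition receptors and respond strongly to interferons.

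The library labelled Ctrl held 10220 deposited barcodes with 71527701 UMIs, and the library labelled cKO held 6872 with 64393950. Members had a median of 4694.5 UMIs and 1990.5 genes in Ctrl, and 9130.5 UMIs and 2742.5 genes in cKO. The cKO members were thus deeper by a ratio of 1.94, against 1.77 for the other kept barcodes. Mitochondrial UMIs had a median of 1.94% in Ctrl members and 1.86% in cKO members. With 1 library per genotype there was no replicate, so no p-value is given, and every interval below is a 95% interval for counting error only. Barcode names were shared between the libraries in 3010 cases. Such a name belonged to 55 of 152 Ctrl members and 67 of 126 cKO members, and 1 name belonged to members of both.

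Map4k4 itself (ENSMUSG00000026074, at chr1:39900913-40026310 on the plus strand of GRCm38) had 193 UMIs in Ctrl members, or 240 counts per 1000000 UMIs (CPM, the sum over members scaled to their total), and 180 UMIs or 150 CPM in cKO members. Its log2 ratio of cKO over Ctrl was -0.67 (-0.98 to -0.37) in members, -0.17 in the other kept barcodes and 0.01 in the dividing barcodes described below. Map4k4 RNA was therefore still counted in the library labelled cKO, and counts per gene do not show which exons were present, so Ctrl and cKO stand for the labels throughout. Xist, the RNA of the inactive X chromosome, had 472 UMIs in Ctrl members and 477 in cKO members, and 4 genes of the Y chromosome (Ddx3y, Eif2s3y, Kdm5d and Uty) had none in members of either library.

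Of the 5 markers that name these cells, Ccr2 and Fn1 were part of the rule, while S100a4, Ctss and Vcan were not. Ccr2 had 1937 CPM in Ctrl members and 1685 in cKO members, against 99.0 and 62.7 CPM in the other kept barcodes. Fn1, which encodes the matrix protein fibronectin, had 1994 and 1844 CPM. These levels lay 4.29 and 4.75 log2 units over the other barcodes for Ccr2 and 4.30 and 4.83 for Fn1, and both genes count towards the sum that the rule used. S100a4, a calcium-binding protein gene, had 2199 and 2967 CPM. The lysosomal protease gene Ctss had 1673 and 1684 CPM, and Vcan, which encodes the proteoglycan versican, had 137 and 283 CPM. All 5 markers were between 4.29 and 5.37 log2 units higher in members than in the other barcodes of the same library. Of 5104 genes with at least 50 UMIs over all members, 858 (16.8%) were at least 2-fold higher in members in both libraries.

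**Figure D1:**
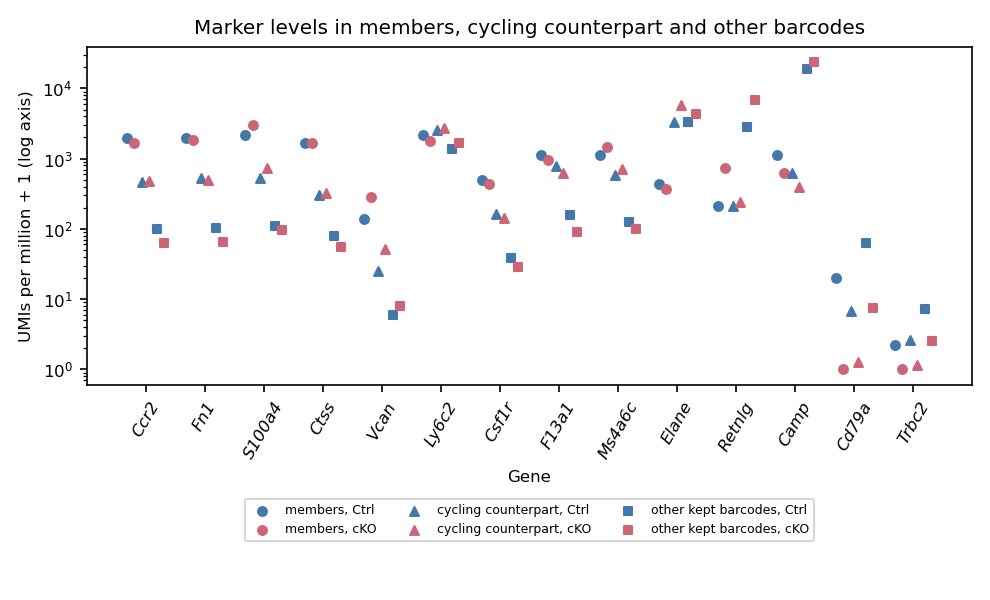
CPM plus 1 (log axis) for each gene, summed over members (circles), the dividing barcodes that otherwise meet the rule (triangles) and the other kept barcodes (squares), in Ctrl (blue) and cKO (red). Ccr2, Fn1, S100a4, Ctss and Vcan are highest in members and next highest in the dividing barcodes, while Elane, Retnlg and Camp are higher in the other kept barcodes than in members of both libraries.

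Beyond the markers, the genes that stood furthest above the other barcodes were Hpgd, which encodes a prostaglandin-degrading enzyme (5.35 log2 units in Ctrl and 6.56 in cKO), the C-type lectin receptor genes Clec4a3 (5.24 and 5.99) and Clec4a1 (4.66 and 5.90), the interferon-inducible genes Ifi207 (4.94 and 5.27), Slfn5 (5.03 and 4.87) and Ifi211 (4.42 and 4.62), the endocytic receptor gene Lrp1 (4.56 and 5.03), Pid1 (4.32 and 5.03) and Ms4a4c (4.31 and 4.91). Ly6c2, which encodes the Ly6C of classical monocytes, did not belong to them. It had 2162 CPM in Ctrl members and 1809 in cKO members, 0.68 and 0.14 log2 units over the other barcodes. Of the 27 measured genes of a monocyte progenitor list that the study took from these same libraries, all 27 were at least 2-fold higher in members in both libraries, which is no independent evidence.

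Markers of other cells were low with a few exceptions. Siglech (plasmacytoid dendritic cells) was at 0 by the rule and C1qa (marrow macrophages) was also at 0, which allows up to 3.73 CPM in Ctrl and 2.50 CPM in cKO. The T and NK cell list of 12 genes summed to 48.5 and 2.50 CPM, with Ccl5 highest and Cd3g, Trac, Cd8a, Cd4 and Gzma at 0, and 1 Ctrl barcode held 92.3% of the Ctrl sum. The B cell list of 10 genes summed to 85.8 and 28.4 CPM, with Cd79b highest and Pax5 at 0. The macrophage list of 15 genes summed to 884 and 994 CPM, with Apoe highest, and the plasmacytoid dendritic cell list of 10 to 321 and 228 CPM, with Bst2, also an interferon-stimulated gene, highest. Basophil, mast cell and eosinophil genes summed to 28.6 and 12.5 CPM, and stem cell and megakaryocyte genes to 57.2 and 29.2 CPM. Neutrophil RNA was more abundant: secondary granule genes summed to 3414 and 2532 CPM, with Camp highest, primary granule genes to 2091 and 1910 CPM, with Mpo highest, and late neutrophil genes to 1653 and 3184 CPM, with Wfdc17 highest. Erythroid genes summed to 440 and 49.3 CPM, with Hba-a2 highest. The plasma cell list summed to 8361 CPM in Ctrl and 542 CPM in cKO, and 1 Ctrl barcode with 44.3% of its UMIs from that list held 81.1% of the Ctrl sum. In cKO, 2 barcodes with at least 2% of UMIs from late neutrophil genes held 26.3% of that list's sum. With limits of 5% of UMIs for plasma cell genes, 2% for primary granule and late neutrophil genes and 0.5% for the others, 3 Ctrl and 3 cKO members were rich in another lineage. With primary granule genes limited to 1%, 146 Ctrl and 121 cKO members were left, and among them 52 genes were at least 2-fold higher and 284 lower in cKO. No doublets were removed, and the part of these barcodes in the ratios between libraries was not tested beyond the values given without them.

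At the limit of the rule, barcodes differed by library. Of those that met all other criteria, 15 Ctrl and 2 cKO barcodes had 2 or 3 UMIs of the 4 monocyte genes and were left out, 20 Ctrl and 3 cKO barcodes had 4 to 7 and were kept, and 132 Ctrl and 123 cKO barcodes had 8 or more. S100a4 had 325 CPM in the Ctrl barcodes just outside, 1268 just inside and 2321 in those well inside. Elane, an early granule protease gene, had 844, 2095 and 209 CPM in the same order. Summed over the band, Ctrl barcodes near the limit thus held more Elane and less S100a4 than the rest of the Ctrl members. This was uneven: the 4 Ctrl barcodes with 5 UMIs had 5805 CPM of Elane and 508 of S100a4. The 4 with 6 UMIs had 73.9 and 2809 CPM. In cKO, Elane went the other way, at 206 CPM in the 3 barcodes just inside and 365 in those well inside.

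The share of members among kept barcodes was 1.73% (1.47 to 2.02) in Ctrl. It was 2.36% (1.97 to 2.80) in cKO, higher by 0.628 percentage points (0.153 to 1.14). The direction of this difference was not the same under all settings. Thinning lowers every UMI count that the rule uses at once, so the part of each criterion was not tested. After each barcode was thinned to 1000 UMIs before the rule was applied, the difference was -0.189 points (-0.501 to 0.149), and when up to 2 UMIs of Mki67 and Top2a were allowed it was -0.107 points (-0.701 to 0.514). Which library held more of these monocytes was therefore not settled by these data.

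Dividing barcodes that met every other criterion, called the cycling counterpart, numbered 649 in Ctrl and 280 in cKO. They were deeper than members, with medians of 13314 and 22769.5 UMIs, so a minimum of 4 monocyte UMIs was easier to reach. At 1000 UMIs each, their median was 12 UMIs of the study's monocyte progenitor list in both libraries, against 32.5 and 33 in members, and 5 and 8 UMIs of primary granule genes, against 1 and 0.5. Their share of kept barcodes was 7.38% (6.84 to 7.95) and 5.24% (4.65 to 5.87), which gave -2.14 points (-2.94 to -1.32) for cKO minus Ctrl. Of members and cycling counterpart together, 19.0% (16.3 to 21.9) of Ctrl barcodes and 31.0% (26.6 to 35.8) of cKO barcodes were members. This difference of 12.1 points (6.89 to 17.4) went the same way, at 9.51 points (3.60 to 15.3), after the same barcodes were thinned to 1000 UMIs. With the whole rule applied to thinned barcodes it was 11.5 points, with an interval that includes 0 (-2.85 to 23.5). It was 7.09 points (1.45 to 12.8) with up to 1 UMI of Mki67 and Top2a allowed, 5.91 (0.0941 to 11.8) with up to 2 and 4.30 (-1.65 to 10.2) with up to 5. In the cycling counterpart, 95 Ctrl and 28 cKO barcodes had exactly 1 such UMI. Barcodes rich in the mature neutrophil gene Retnlg, which should not divide, also held these UMIs, and more often in Ctrl: 27.4% against 19.1% had at least 1, at median depths of 2685 and 6534 UMIs, and their Mki67 and Top2a sum was 144 CPM against 54.0 CPM. Thinned to 1000 UMIs, 1485 of 1694 in Ctrl and 1536 of 1652 in cKO had none, a share 5.32 points higher in cKO (3.32 to 7.32) and so in the same direction as that of members. Whether all Retnlg-rich barcodes had stopped dividing was not tested, nor was the part of this difference between libraries in the share of members.

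**Figure D2:**
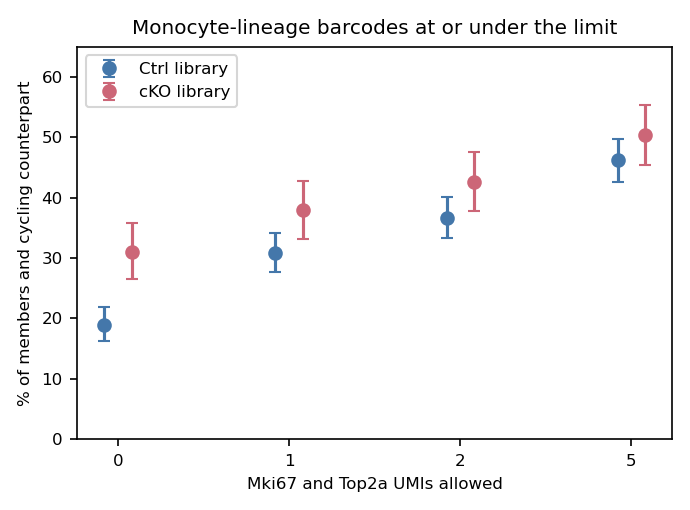
Share of members and cycling counterpart (percent) with at most 0, 1, 2 or 5 UMIs of Mki67 and Top2a in the Ctrl (blue, of 801 barcodes) and cKO (red, of 406 barcodes) libraries, with exact 95% intervals for counting error. The cKO share is higher at each limit, and the gap narrows from 12.1 points at 0 UMIs to 4.30 points at 5.

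Set against the cycling counterpart, members held more RNA of interferon-stimulated and receptor genes and less of division and primary granule genes, while secondary granule genes summed higher in members, at 3414 against 2157 CPM in Ctrl and 2532 against 1565 in cKO. Of the 5104 genes, 621 (12.2%) were at least 2-fold higher and 270 (5.29%) at least 2-fold lower in members in both libraries. Among cell cycle genes other than Mki67 and Top2a, 13 of 17 measured were lower. They include Stmn1, which encodes a microtubule-destabilising protein, and Hmgb2, a chromatin protein gene that was 1.61 log2 units lower in Ctrl and 1.90 lower in cKO. Of 7 primary granule genes, 6 were lower, with Elane down by 2.94 and 4.01 log2 units and Mpo, the myeloperoxidase gene, by 2.61 and 3.15. Ccr2 was 2.06 and 1.84 log2 units higher in members, S100a4 2.04 and 2.03, Ctss 2.49 and 2.37, Vcan 2.51 and 2.49, and Slfn5 3.72 and 3.48. Ly6c2 was not among them, at -0.22 and -0.58. Interferon-stimulated genes were at least 2-fold higher in members for 26 of 32 measured, pattern recognition and Fc receptor genes for 14 of 18, nonclassical monocyte genes for 10 of 11 and lysosomal genes for 13 of 23, and Cd63 was the single gene of these 4 lists that was at least 2-fold lower. Since the rule split these barcodes, the counts are a description.

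Members varied among themselves along 4 gene groups, described here by barcodes past a share of UMIs that was set after the data were seen. Fn1, Ccr2 and Csf1r are genes of the rule, so their values in these groups are a description. MHC class II genes and Cd74, their chaperone gene, were concentrated in few members: 8 of 152 in Ctrl (5.26%, 2.30 to 10.1) and 9 of 126 in cKO (7.14%, 3.32 to 13.1) had at least 1% of UMIs from that list. Those members held 245 of the 276 UMIs of H2-Aa in Ctrl and 344 of the 370 in cKO. Outside the list, they had less Fn1 than the remaining members, at 442 against 2087 CPM in Ctrl and 346 against 1949 in cKO, and no Vcan UMI in either library. In each library, 2 of these members also belonged to the nonclassical group described next, so Ace, Spn and Cx3cr1, genes of nonclassical monocytes, are given without them. In the 6 Ctrl members left, Ace had 2 UMIs, and the intervals of all 3 ratios to the remaining members included 0. In the 7 cKO members left, Ace had 188 against 7.14 CPM (4.72 log2 units, 3.27 to 6.23) and Cx3cr1 392 against 164 CPM (1.26, 0.56 to 1.89), while the interval for Spn included 0. Fn1 stayed lower without them, by 2.04 log2 units in Ctrl and 2.08 in cKO. Ccr2 was closer to the level of the remaining members. With the shared members it had 2429 against 1908 CPM in Ctrl and 1540 against 1695 in cKO. Without them it had 2896 against 1908 CPM in Ctrl (0.60 log2 units, 0.30 to 0.89). In cKO it then had 1996 against 1695 CPM, so the direction turned, with an interval that includes 0. Flt3, a dendritic cell lineage gene, had 3 UMIs in the MHC class II group in Ctrl and 2 in cKO.

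Nonclassical monocyte genes were at 0.4% of UMIs or more in 14 Ctrl members (9.21%, 5.13 to 15.0) and 6 cKO members (4.76%, 1.77 to 10.1), a difference of -4.45 points (-10.7 to 1.93). Near the limit, within 20% of it, were 10 Ctrl and 7 cKO members, and the median depth in the Ctrl group was 3551 UMIs against 5081 in the rest. In each library 2 of these members were also in the MHC class II group, and Cd74 had 1344 against 800.2 CPM in Ctrl and 5166 against 649 CPM in cKO. Outside the list, Ly6c2 was 1.26 log2 units lower in them than in the remaining Ctrl members and 1.64 lower in cKO, and Ccr2 was 1.15 and 0.77 lower. Csf1r, the receptor gene for macrophage colony-stimulating factor, was 0.90 and 1.29 higher, and the apolipoprotein gene Apoe 1.44 and 1.32 higher. Both libraries thus had less Ly6c2 in these members. The values of Ccr2 and Csf1r, genes of the rule, are a description. The members shared with the MHC class II group were not left out here.

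Primary granule genes marked another group, 11 Ctrl members (7.24%, 3.67 to 12.6) and 5 cKO members (3.97%, 1.30 to 9.02) with at least 0.3% of UMIs from them. Of these, 4 Ctrl and 3 cKO barcodes lay at 1.42% or more, held 73.5% and 94.0% of the group's UMIs and went against the label. S100a4 had no UMI in those 4 and 13.4 CPM in those 3, against 2345 and 3165 CPM in members under the limit, and Ctss had none and 93.9 CPM, against 1790 and 1793. Cd34, a progenitor surface marker gene, had 14 of its 15 Ctrl UMIs and 16 of its 17 cKO UMIs in them, and Myb, a progenitor transcription factor gene, had 35 of 53 and 29 of 37. The remaining 7 Ctrl and 2 cKO barcodes, at 0.310% to 0.694%, held S100a4 at 1392 and 2519 CPM and Ctss at 823 and 1050 CPM, with no Cd34 UMI. Most members carried little of this RNA, with a median of 0.100% of UMIs in Ctrl and 0.0686% in cKO.

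**Figure D3:**
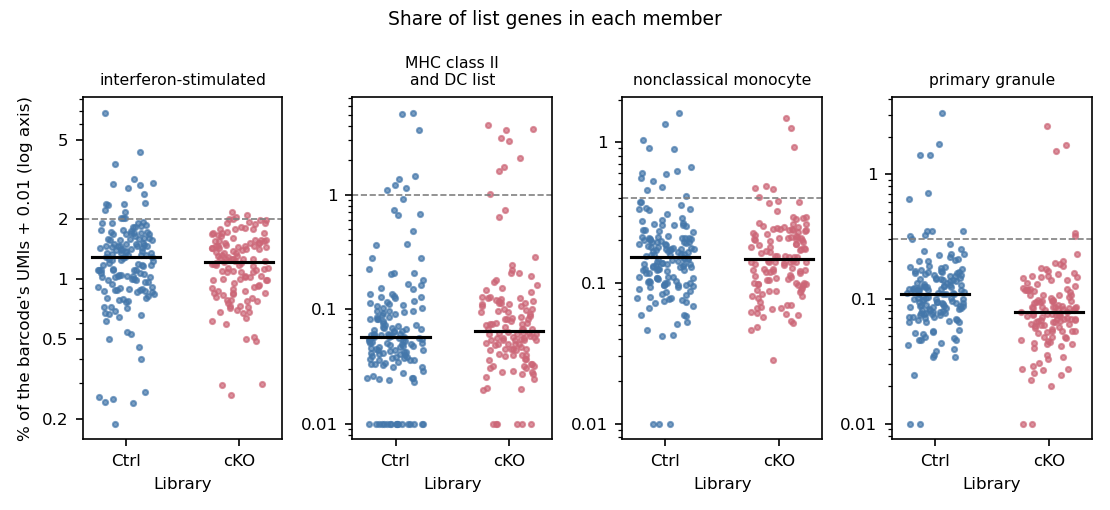
Percent of each member's UMIs plus 0.01 (log axis) from 4 gene lists in the Ctrl and cKO libraries, 1 point per barcode, with the median as a black bar and the limit used in the text as a dashed line. For the interferon-stimulated list, 18 Ctrl and 4 cKO members lie at or above 2%, and for the MHC class II list, 8 and 9 members lie at or above 1%.

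Interferon-stimulated genes were the fourth group. At least 2% of UMIs came from its 37 genes in 18 Ctrl members (11.8%, 7.17 to 18.1) and 4 cKO members (3.17%, 0.872 to 7.93), a difference of -8.67 points (-15.1 to -2.35). Many barcodes lay near that limit, 31 in Ctrl and 24 in cKO within 20% of it. With the limit at 1% the difference was -2.41 points (-13.4 to 8.46), with it at 1.5% it was -3.94 points (-14.4 to 6.83) from 47 Ctrl and 34 cKO members, and with it at 2.5% there were 9 Ctrl members and 0 cKO members. Without Ifitm2 and Ifitm3, left out after they were seen to be higher in cKO, the difference was -21.5 points (-30.7 to -11.6) at 1% and -9.87 (-15.6 to -5.06) at 1.5%, a size that the choice of genes helps to set. Median depth was 3631 UMIs in the 18 Ctrl members and 4794.5 in the rest. Ifit3, which encodes an antiviral protein, had 35 of its 44 Ctrl UMIs in those 18 members, and its 14 cKO UMIs lay in 9 members. Outside the list, the 18 Ctrl members had more Ly6c2 (4676 against 1881 CPM), Fcgr1, the gene of a high-affinity Fc receptor (309 against 74.6 CPM), and Cxcl10, an interferon-induced chemokine gene (247 against 8.29 CPM). They had less Fn1 (1101 against 2094 CPM). In the 4 cKO members, Ly6c2 was 0.44 log2 units higher (0.11 to 0.75) and Fcgr1 1.29 higher (0.20 to 2.22), Fn1 had 1552 against 1853 CPM with an interval that spans 0, and Cxcl10 and Ifit3 had no UMI. Cd74 was 1.14 log2 units higher in the 18 Ctrl members than in the rest and 2.19 lower in the 4 cKO members.

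Between the libraries, 60 of the 5104 genes (1.18%) were at least 2-fold higher in cKO members and 281 (5.51%) at least 2-fold lower. The median gene was at -0.18 on the log2 scale in members, -0.36 in the other kept barcodes and -0.15 in the cycling counterpart. With ratios taken against that median, 126 genes were higher and 139 lower, so higher genes were 47.5% of the calls in place of 17.6%. List medians below are read beside -0.18, and counts of list genes past 2-fold beside the 1.18% and 5.51% of all genes.

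Of 32 measured interferon-stimulated genes, 0 were at least 2-fold higher and 8 at least 2-fold lower in cKO members, where 5.51% of all genes were lower. The list median was -0.68, against -0.63 in the other kept barcodes and -0.47 in the cycling counterpart, so both of the other sets also had lower medians. Ifit3 had 54.7 CPM in Ctrl and 11.7 in cKO, a log2 ratio of -2.23 (-3.21 to -1.33), and Rsad2, the gene of the antiviral enzyme viperin, had 54.7 and 13.4 CPM, a ratio of -2.03 (-2.96 to -1.18). The other genes past 2-fold were Cmpk2 at -1.43, Ifi203 at -1.37, Oas3 at -1.19, Stat2 at -1.15, Mndal at -1.11 and Gbp2 at -1.05. Irf7, a factor that drives type I interferon genes, was at -0.81 and Isg15 at -0.64. Ifitm2 (0.92) and Ifitm3 (0.31), which encode membrane proteins that block virus entry, and Rtp4 (0.93) were higher. Ifitm1, of the same family but not on this list, was also higher, at 3.85, and is described below. Summed over all 37 genes, the list had 13325 CPM in Ctrl members and 11845 in cKO members, a ratio of -0.17 (-0.21 to -0.13), while in the other kept barcodes the sum was higher in cKO, at 0.29. Ifitm2 and Ifitm3 weigh heavily in that sum. Without them, a choice made after their direction was seen, the ratio of the sums was -0.59 in members, -0.47 in the other barcodes and -0.25 in the cycling counterpart. When the rule was applied to thinned barcodes, leaving 89 Ctrl and 44 cKO members, the list median was -0.04 and Ifit3 was at -0.05.

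Many interferon-stimulated genes are known to carry, near their start, the interferon-stimulated response element, to which IRF factors bind. Its core letters GAAANNGAAA, searched on both strands of RefSeq promoter windows of 300 bases (250 before to 50 after each gene start, GRCm38.p6), were found for 19 of 29 list genes with a window (65.5%), against 1079 of 27025 genes of the table (3.99%). The letters were found for 7 of the 8 list genes past 2-fold lower (87.5%), and for 17 of 220 such genes outside the list (7.73%). Windows of 60 bases are given for the 2 list genes with the lowest and the 2 with the highest ratio among those with a match, on the gene's strand from 5′ to 3′ with each match in capitals; where the capitals read TTTC, the match lies on the opposite strand. A match is a description of letters and not a measured binding site. Ifit3 lies at chr19:34583348-34583407 (plus strand), Rsad2 at chr12:26456538-26456597 (minus), Ifitm3 at chr7:141010708-141010767 (minus) and Ifitm2 at chr7:140955973-140956032 (minus).
Ifit3: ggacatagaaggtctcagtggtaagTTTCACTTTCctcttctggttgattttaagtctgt
Rsad2: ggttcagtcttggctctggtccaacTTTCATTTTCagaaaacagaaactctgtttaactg
Ifitm3: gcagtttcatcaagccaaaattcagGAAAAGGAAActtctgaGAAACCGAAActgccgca
Ifitm2: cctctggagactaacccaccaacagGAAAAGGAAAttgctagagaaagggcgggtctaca
The letters were thus present near the starts of genes with ratios of -2.23 and -2.03 and of genes with ratios of 0.31 and 0.92.

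Of 23 measured S100, annexin and cytoskeleton genes, 0 were at least 2-fold higher in cKO members and 1 was at least 2-fold lower. Only 3 of the 23 had a ratio below 0, against 62.7% of all genes measured, with a list median of 0.36 in members and 0.37 in the other kept barcodes. S100a4 was at 0.43 (0.35 to 0.51), S100a10, which encodes the partner of annexin A2, at 0.65 (0.47 to 0.84), and the actin gene Actb had 9781 CPM in Ctrl and 14701 in cKO, a ratio of 0.59 (0.55 to 0.63). Ahnak, the gene of a very large scaffold protein, was the one past 2-fold lower, with 2281 CPM in Ctrl and 1004 in cKO, a ratio of -1.18 (-1.29 to -1.08), and it was also lower in the other kept barcodes at -1.40.

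Among 11 measured classical monocyte genes, 2 were at least 2-fold higher and 0 lower in cKO members, beside 1.18% and 5.51% of all genes. The list median was 0.22. Vcan was at 1.05 (0.74 to 1.37) in members and 0.46 in the other kept barcodes, and under 6 of the 17 alternative settings its ratio in members was under 1, as low as 0.55. Cd14, the co-receptor gene for lipopolysaccharide, had only 17 Ctrl UMIs and 58 cKO UMIs, a ratio of 1.20 (0.40 to 2.07). Ly6c2 was at -0.26 (-0.35 to -0.17), Plac8 at 0.22 (0.16 to 0.29) and Chil3 at 0.21 (0.10 to 0.32). Ccr2, which is not on this list, was at -0.20 (-0.30 to -0.10). It counts towards the sum that the rule used at unequal depths, so that ratio is a description. In all, 8 of the 11 were above 0 and 3 below, and 2 were below the median of all genes. Of 11 nonclassical monocyte genes, 1 was at least 2-fold higher, Apoc2 at 1.12, and 0 lower, beside the same shares of all genes. Their median was -0.37. Of 8 measured genes of the MHC class II and monocyte-derived dendritic cell list, 6 of them MHC class II or Cd74, 0 were past 2-fold in either direction. H2-Aa had 343 and 309 CPM and Cd74 835 and 880 CPM in Ctrl and cKO members, while in the other kept barcodes their ratios were -1.89 and -1.19. B cells also express these genes, and barcodes with at least 5 UMIs of Cd79a and Cd79b numbered 598 in Ctrl and 52 in cKO. The B cell list had a median of -1.99 in the other kept barcodes, and its part in that contrast was not tested.

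Lysosomal and antigen-processing genes had a median of 0.20 over 23 measured. Of these, 1 was at least 2-fold higher and 1 lower, beside 1.18% and 5.51% of all genes. Ctsl, a cathepsin gene, had 36.1 CPM in Ctrl and 95.2 in cKO, a ratio of 1.40 (0.80 to 2.04). Cd63, a tetraspanin gene, had 35 Ctrl and 18 cKO UMIs, a ratio of -1.53 (-2.44 to -0.67) that turned to 0.95 when up to 2 UMIs of Mki67 and Top2a were allowed. Lyz2, the lysozyme gene and the most abundant of the list, had 20429 CPM in Ctrl and 27536 in cKO, a ratio of 0.43 (0.40 to 0.46). Ifi30, which encodes a lysosomal thiol reductase, was at 0.75 (0.62 to 0.89). In the list of pattern recognition and Fc receptor genes, 1 of 18 was past 2-fold higher (Cd14) and 1 lower, beside the same shares of all genes. The lower one was Nlrp3, the inflammasome sensor gene, at -1.72 (-2.58 to -0.91) with 42 and 19 UMIs. Fcer1g, the shared Fc receptor chain gene, was at 0.62 (0.53 to 0.72). Subunits of the phagocyte NADPH oxidase differed in direction, with Cyba at 0.70 (0.58 to 0.82) and Cybb at -0.25 (-0.35 to -0.16), and 0 of 7 were past 2-fold.

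**Figure D4:**
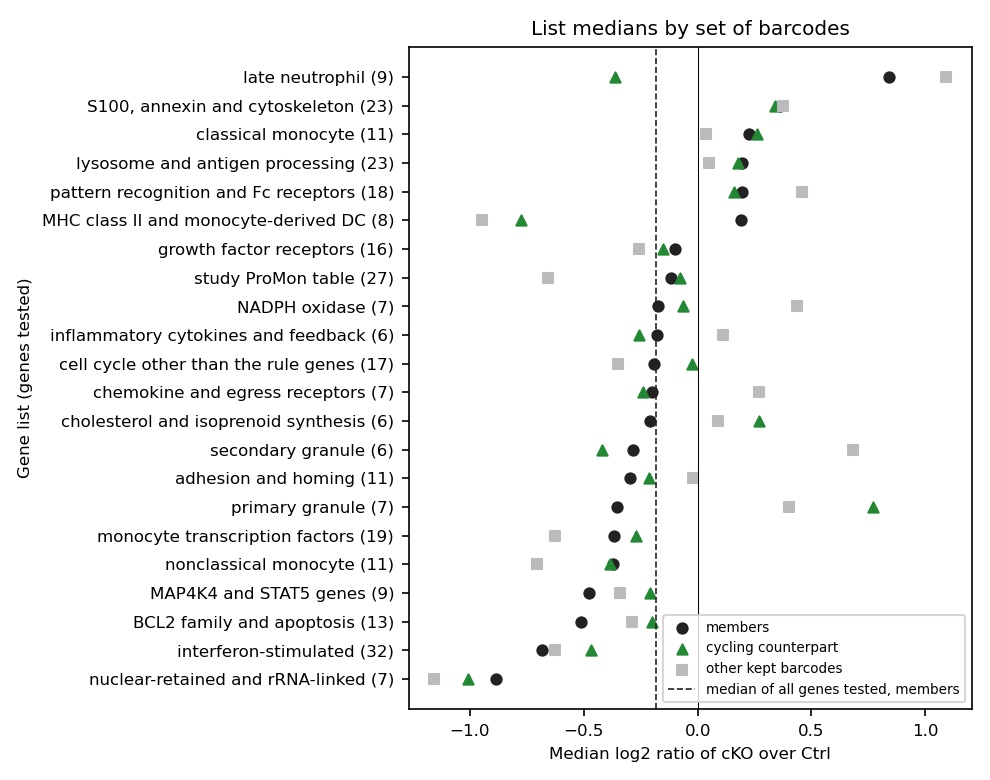
Median log2 ratio of cKO over Ctrl for each gene list with at least 5 measured genes (number in brackets; the plasma cell list is not drawn) in members (circles), the cycling counterpart (triangles) and the other kept barcodes (squares), with the median of all 5104 genes in members as a dashed line. Members lie at -0.68 for interferon-stimulated genes, near the other barcodes at -0.63, and at 0.19 for the MHC class II and monocyte-derived dendritic cell list, where the other barcodes, which include 598 Cd79-positive barcodes in Ctrl and 52 in cKO, lie at -0.95.

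Of 19 measured transcription factor genes of the lineage, 0 were at least 2-fold higher and 3 at least 2-fold lower in cKO members, where 5.51% of all genes were lower, with a median of -0.37. A ratio below 0 was found for 13 of the 19, near the 62.7% of all genes. Zeb2, which encodes a repressor needed for monocyte development, had 1023 CPM in Ctrl members and 450 in cKO members, a ratio of -1.18 (-1.34 to -1.03), with -1.62 in the other kept barcodes. The immediate early genes Jun (-1.29) and Egr1 (-1.11) were the others. Klf4, a factor of late monocyte differentiation, was at -0.78 (-1.03 to -0.53) and Irf8 at -0.37 (-0.60 to -0.14). Spi1, the gene of PU.1, was at 0.46 (0.27 to 0.65).

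Growth factor receptor genes stood near the median of all genes, with a list median of -0.10. Of 16 measured, 1 was past 2-fold higher and 1 lower, beside 1.18% and 5.51% of all genes. Il6ra was at -0.81 (-1.04 to -0.57) and Tgfbr2, a TGF-beta receptor gene, at -1.22 (-1.93 to -0.53), while Csf2rb2, with 12 and 39 UMIs, was at 1.13 (0.16 to 2.20). Csf1r was at -0.19 (-0.38 to -0.000866). The rule required at least 1 UMI of it at unequal depths, so that ratio is a description. Of 7 chemokine and egress receptor genes and 11 adhesion genes, 0 were past 2-fold in either direction. Ccr1 was at 0.96 (0.37 to 1.59), Cx3cr1, the fractalkine receptor gene, at -0.68 (-0.96 to -0.41), and Itga4, an integrin gene, at -0.81 (-1.01 to -0.61). In the list of Map4k4 paralogs, MAP kinases and STAT5 genes, 2 of 9 measured were past 2-fold lower, beside 5.51% of all genes. Stat5a had 35 and 20 UMIs, a ratio of -1.38 (-2.25 to -0.55), and Stat5b 76 and 54 UMIs, a ratio of -1.07 (-1.60 to -0.55). In the other kept barcodes these genes were at -0.72 and -0.42. Among 13 measured BCL2 family and apoptosis genes, 0 were past 2-fold and 10 were below 0, where 62.7% of all genes were, with a median of -0.51. The survival gene Mcl1 was at -0.68 (-0.90 to -0.45) and the death effector gene Bax at 0.66 (0.28 to 1.06).

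Among genes outside the selection rule with at least 100 CPM in members of either library, the 8 highest ratios in cKO members were those of Ifitm1 (3.85), Lrg1 (2.43), Retnlg (1.81), Trem2 (1.80), Ms4a6d (1.60), Sirpb1c (1.27), Wfdc21 (1.20) and Sdf2l1 (1.19). Trem2, which encodes a lipid-sensing receptor of macrophages, had 33 UMIs in 25 Ctrl members and 171 UMIs in 70 cKO members, or 41.0 and 143 CPM. Its ratio of 1.80 (1.25 to 2.38) stood beside 0.61 in the cycling counterpart and 0.01 in the other kept barcodes; the difference between these sets was not tested. After thinning to 1000 UMIs, 3.29% of Ctrl members and 14.3% of cKO members had a Trem2 UMI, against 0.502% of 598 Ctrl barcodes and 0 of 52 cKO barcodes with Cd79a and Cd79b UMIs, where 0 of 52 allows up to 5.77%. These barcodes were taken as B cells, which should lack the gene, by a limit on UMIs that was not scaled to depth. Whether all of them are B cells was not tested. They had median depths of 3268.5 and 15085 UMIs before thinning. Ms4a6d, a membrane protein gene of myeloid cells, had 75.8 and 230 CPM, with 1.76 in the cycling counterpart and 1.05 in the other barcodes. Retnlg, Lrg1 and Wfdc21 are abundant in neutrophils and were higher in cKO in the other kept barcodes as well, at 1.30, 1.43 and 0.90. A single cKO barcode held 49.7% of the 875 Retnlg UMIs of cKO members, and without the top barcode of each library Retnlg was at 0.86. With the rule on thinned barcodes it turned to -2.19. Ifitm1 had 12 Ctrl and 258 cKO UMIs, with 30.2% of the latter in 1 barcode, and was at 3.75 without the top barcodes and 2.75 without the members rich in another lineage at the lower granule limit. Late neutrophil genes as a list had 3 of 9 at least 2-fold higher, beside 1.18% of all genes, and a median of 0.84, which was 0.14 without the 6 members rich in another lineage.

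**Figure D5:**
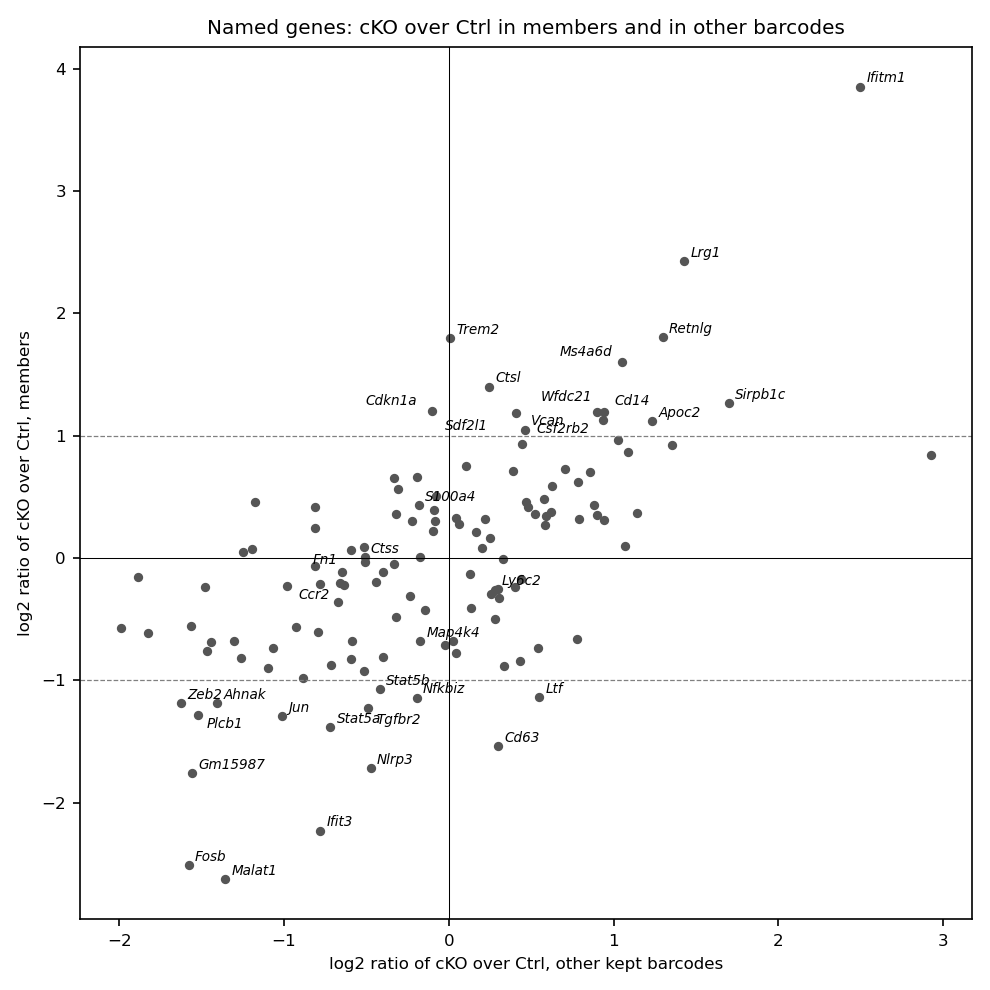
Log2 ratio of cKO over Ctrl in members (vertical) against the same ratio in the other kept barcodes (horizontal) for the named genes with at least 50 UMIs, without plasma cell and erythroid genes; dashed lines mark 2-fold. Trem2 lies at 1.80 in members and 0.01 in the other barcodes, whereas Ifitm1, Lrg1 and Retnlg lie above 1 in both.

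Above the same minimum of 100 CPM, the 8 lowest ratios in cKO members were those of Igha, Jchain, Igkc, Hba-a2, Hbb-bs, Malat1, Fosb and Gm15987. Igha (-7.56), Jchain (-5.46) and Igkc (-5.21), which encode parts of secreted antibody, had 88.5%, 86.7% and 84.5% of their Ctrl UMIs in the same single barcode. Without the top barcodes their ratios were -4.58, -2.81 and -2.57. Haemoglobin genes were spread over many members, with Hba-a2 at 158 and 10.0 CPM (-3.98) and Hbb-bs at 111 and 14.2 CPM (-2.96), and they were lower in cKO in the other kept barcodes too, at -1.53 and -1.25. Malat1, a nuclear RNA, had 6936 CPM in Ctrl members and 1124 in cKO members, a ratio of -2.63 (-2.71 to -2.54), against -1.36 in the other kept barcodes and -1.28 in the cycling counterpart. Its list of nuclear-retained and rRNA-linked transcripts had a median of -0.89 in members, -1.16 in the other kept barcodes and -1.01 in the cycling counterpart. Fosb, an AP-1 subunit gene, was at -2.51 (-2.98 to -2.06), with -1.58 in the other barcodes, and the RNA Gm15987 at -1.76. Malat1, Fosb, Jun, Igha, Igkc, Hba-a2 and Hbb-bs were all lower in cKO in members, in the cycling counterpart and in the other kept barcodes, and their part in the gene counts above was not tested.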

How the data were processed

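Raw UMI counts per gene and barcode were deposited by the authors as 1 matrix per library, made with Cell Ranger 5.0.0 per the submitters' processing notes on the mm10 (GRCm38) genome. No barcode was annotated with a cell type in the files used here. The filters of the rule were applied to the counts with Python 3.11.15, numpy 2.4.6, scipy 1.17.1, pandas 2.3.3 and statsmodels 0.14.6, and figures were drawn with matplotlib 3.10.9. No doublet caller was run. The members, gene lists and comparisons were chosen with earlier results of these data known.

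UMIs were summed over the barcodes of each set and scaled to 1000000. UMIs of 3′ libraries do not scale with gene length. Genes with at least 50 UMIs over members of both libraries were measured further, and a gene was counted as higher or lower at a 2-fold ratio. Intervals were exact binomial (Clopper-Pearson) for shares and for ratios of counts, and Newcombe's for differences of shares. Molecules of 1 barcode share a source, so these intervals are too narrow for differences between mice. Where 3 counts are taken as the limit for a gene at 0, this too covers counting error only. Thinning drew 1000 UMIs per barcode without replacement (seed 11). Reference sets were barcodes with at least 1% Retnlg UMIs and barcodes with at least 5 UMIs of Cd79a and Cd79b. The scripts were tested on simulated data with known folds.

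Genes named in the text were the 5 markers and the rule's genes, Map4k4, Stat5a, Stat5b, Xist and Y-linked genes, the 8 highest and 8 lowest ratios where members of 1 library reached 100 CPM, the 12 genes highest over the other barcodes, and from each of 31 lists the 3 most abundant genes, those with the highest and lowest ratio and those at 0. Further list members, and genes that set groups of members apart, were chosen after their values were seen. Coordinates came from GENCODE vM21, in which 32158 of 32285 gene identifiers were found. Of 475 list entries, 473 were in the files, and the others are not analysed here. Values of some list genes are not reported here. Alternatives covered the filters, the rule's limits, scaling, thinning and the gene minimum.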

Additional observations from a re-analysis of the deposited data

Results flagged for a closer look

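In members, 3 flagged genes outside the selection rule were at least 2-fold lower in cKO while their ratio in the other kept barcodes had the opposite sign. Ltf, which the rule used, had the same pattern and is given at the end as a description. Samd9l, an interferon-inducible gene, had 137 CPM in Ctrl members and 54.3 in cKO members, a log2 ratio of -1.33 (-1.80 to -0.88), against 0.43 in the other kept barcodes. Lyst, which encodes a regulator of lysosome size, had 264 and 131 CPM, a ratio of -1.01 (-1.31 to -0.70), against 0.13. Tmcc1 had 404 and 196 CPM, a ratio of -1.04 (-1.29 to -0.80), against 0.19. How many other genes had opposite signs in members and in the other kept barcodes is not given here, and Cdkn1a, described below, was another. The difference between the sets was not tested.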

How the results depend on the processing

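The higher share of members in cKO depended on the rule: its difference from Ctrl was 2.36 points among barcodes under 2% granule UMIs, 3.58 points among barcodes with Csf1r, -0.189 points with the rule on thinned barcodes, and, in alternatives chosen after seeing the data, -0.107 with up to 2 and -0.373 with up to 5 UMIs of Mki67 and Top2a. With a minimum of 500 UMIs it was 0.350 points (-0.0452 to 0.768). Those last alternatives gave 5.91 and 4.30 points for the share of members among members and cycling counterpart. Counts of genes at least 2-fold higher and lower were 154 and 636 at a minimum of 20 UMIs, 9 and 42 at 200 UMIs, and 15 and 43 in thinned members, for which fewer genes were measured. With the rule on thinned barcodes, 163 genes were lower, sharing 61 with the 281, and 41 were higher, sharing 10 with the 60. Under the other settings 48 to 78 genes were higher and 254 to 338 lower, but not always the same genes: with up to 2 UMIs of Mki67 and Top2a, 22 of the 60 and 136 of the 281 were shared, and with at least 2 UMIs of Csf1r 37 and 177. Retnlg turned to -2.19 with the rule on thinned barcodes and Cd63 to 0.95 with up to 2 UMIs of Mki67 and Top2a; the cause was not tested. Over genes and list medians, 2320 values kept their place or moved little, 241 moved more, and those 2 genes past 2-fold changed sign. Some settings could not move a gene: a minimum of 500 UMIs kept the same members, and other gene minimums leave each ratio unchanged. A list median counted as little moved within the standard deviation of its genes, even if its sign changed. Only genes past 2-fold could count as changing sign, so this tally overstates stability. Of 23 list medians, 5 changed sign with the rule on thinned barcodes, 3 of 22 in thinned members, and at most 2 under any other setting. No paired analysis was possible because each group held 1 library, and for the same reason no replicate could be left out. Genes with few UMIs carry wide intervals, as for Ifit3 (44 and 14 UMIs, -3.21 to -1.33).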

Other observations

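Cell cycle genes stood near the median of all genes as a group, with 1 of 17 measured at least 2-fold higher in cKO members, 0 lower and a median of -0.19 beside -0.18 for all genes. The gene past 2-fold was Cdkn1a, which encodes the cell cycle inhibitor p21, with 14 Ctrl and 48 cKO UMIs, a ratio of 1.20 (0.32 to 2.18), and -0.10 in the other kept barcodes. Cdkn1b, the gene of the related inhibitor p27, was at -0.77 (-1.29 to -0.26). Inflammatory cytokine and feedback genes were sparse, with 6 of 21 measured, 0 higher and 1 lower, Nfkbiz at -1.14 (-1.93 to -0.37). Il1a, Il6 and Il10 had no UMI in any member. The chemokine gene Ccl6 had 814 and 651 CPM and Ccl9 525 and 646 CPM. Cholesterol synthesis genes (6 measured, median -0.21) and conventional dendritic cell genes (4 measured, median -0.08) had none past 2-fold in either direction.

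Of 6 measured secondary granule genes, 1 was at least 2-fold higher in cKO members (Wfdc21, 1.20) and 1 lower (Ltf), with 3 ratios above 0 and 3 below. Camp, Ngp and Ltf, which the rule limits to under 2% of UMIs, had ratios of -0.88, -0.66 and -1.14 in members, and 0.33, 0.78 and 0.55 in the other kept barcodes. Since the rule used these genes, the values are a description.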
